A study of Mus with 12 samples.

Results

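The genes described here are 8 protein-coding genes that are counted among the progesterone-induced genes of the uterine epithelium before implantation: Prss28, Prss29, Il13ra2, Acod1, Gata2, Lrp2, Sgk1 and Spp1. Their rows were found by gene symbol, with the requirement of an Ensembl mouse transcript, among 87235 rows of the first table (E0.5, E4.5) and among 40787 rows of the second (E15.5, E18.5). All 8 were found in both tables, and all 8 passed the filter of a mean of at least 0.1 FPKM (fragments scaled to transcript length and library size). RNA-seq was performed on the whole uterus of 12 pregnant ICR mice, an outbred stock, at 8 weeks of age, with 1 mouse per library and 3 libraries on each of 4 days. No mouse carried an engineered allele or received a drug, so the groups differ in the day of pregnancy alone as far as the labels state it. E0.5 and E4.5 form the implantation stage, with low and high progesterone respectively, and E18.5 and E15.5 form the labor stage, again with low and high progesterone. Hormone levels were not among the values used here.

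In the mouse, progesterone comes from the corpora lutea that form after ovulation, so that the uterus of the first day after mating is still dominated by estrogen, while the uterus at the time of blastocyst attachment has been exposed to rising progesterone. Progesterone acts through its receptor Pgr in epithelium and stroma, switches the epithelium from proliferation to secretion, and withdraws before labor. The products of the 8 genes act at different places: Prss28 and Prss29 are secreted serine proteases of the glands, Il13ra2 and Lrp2 are receptors at the cell surface, Gata2 is a transcription factor, Sgk1 is a kinase, Acod1 is a metabolic enzyme and Spp1 is a secreted adhesion protein.

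The libraries of the implantation stage held 58020989 to 70906881 counts, and the depth of the labor stage is unknown because its table holds only FPKM. The third E4.5 library stood apart from the other two. Its ovary markers summed to 1360 FPKM, against 5.67 and 6.41 FPKM in E4.5 replicates 1 and 2 and 4.29 to 6.49 FPKM in the E0.5 libraries. All 8 markers of the ovary list were higher in it by more than 1 on the log2 scale, led by the steroidogenic genes Hsd3b1 at 519 FPKM, Cyp11a1 at 378 FPKM and Star at 238 FPKM. The oviduct markers summed to 86.6 FPKM there, against 8.06 and 12.05 FPKM in the other E4.5 libraries. Epithelial markers summed to 101 FPKM against 177 and 243 FPKM, and smooth muscle markers to 206 FPKM against 1214 and 798 FPKM. Across rows, its Spearman correlation with the other E4.5 libraries was 0.674 and 0.652, whereas those correlated with each other at 0.841. Each E4.5 value of the 8 genes is therefore given library by library. Their fold changes and count of calls at the implantation stage are given with and without that library. For other genes and lists this is done only in part. The part of these tissue markers in the results below was not tested.

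The 8 genes were chosen by their values in the contrast of E0.5 with E4.5, as genes known to respond to progesterone, so that their values in it are a description without a test. Prss28 and Prss29, which lie 6777 bases apart on the plus strand of chromosome 17, had with Il13ra2 the largest fitted differences between the days among the 8 genes. Prss28 (implantation serine proteinase 1, chr17:25308554-25311876, GRCm38 coordinates as in the files) had 0.106, 0.0771 and 0.0615 FPKM in E0.5 replicates 1 to 3, from 10 to 16 counts per library. It had 147, 332 and 3.44 FPKM in E4.5 replicates 1, 2 and 3. All E4.5 libraries were above all E0.5 libraries, and replicate 3 was much the lowest of the E4.5 libraries. The mean in CPM, counts scaled to the library total, was 1808-fold higher at E4.5, and 2693-fold higher without E4.5 replicate 3, which alone was 39.0-fold above the E0.5 mean. The fitted log2 fold change of E0.5 relative to E4.5 was -10.82 (standard error 1.79, edgeR).

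Prss29 (implantation serine proteinase 2, chr17:25318654-25322684) had 3.98, 0.804 and 0.241 FPKM at E0.5 against 446, 622 and 5.92 FPKM at E4.5. The E0.5 libraries spread 16.5-fold in FPKM, and the highest of them came close to E4.5 replicate 3 without overlapping it. The E4.5 mean was 213-fold higher in CPM, and 318-fold higher without replicate 3, with a fitted log2 fold change of -7.75 (standard error 1.94). That value was -9.39 without E0.5 replicate 1, which held 402 counts against 71 and 25 in the other E0.5 libraries. Among 15079 protein-coding rows, Prss29 ranked 8th and Prss28 24th by mean FPKM at E4.5, whereas at E0.5 they ranked 9672nd and 14543rd. The Prss29 to Prss28 ratio of FPKM was 3.03, 1.87 and 1.72 in the E4.5 libraries, and in replicate 3, where it was close to that of replicate 2, Prss28 was 69.7-fold and Prss29 90.2-fold below the mean of replicates 1 and 2. At E0.5 the ratio was 37.4, 10.4 and 3.91, with few counts of Prss28 behind it.

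The 2 genes sit next to the tryptase genes of mast cells. Within 100 kb of them lay another 10 protein-coding rows, of which 8 were tested and 1 met the study's criterion, which asks for a log2 fold change of 1 or more in size and for p under 0.05 before adjustment. That row was Baiap3, an exocytosis regulator, at -2.07, with 3.28 FPKM in E4.5 replicate 3 and 0.748 and 0.678 FPKM in the other E4.5 libraries, and it was -0.99 and no longer called without that library. The tryptases Tpsab1 and Tpsb2 were at 0 to 0.187 FPKM in all E4.5 libraries and reached 1.22 and 1.85 FPKM in E0.5 replicate 1 alone, which was also the highest E0.5 library for Prss29. Of 6 tested genes of the tryptase and Prss cluster other than these 2, only Prss32 was called higher at E0.5, with no count at E4.5, while 3 were called higher without E4.5 replicate 3 or E0.5 replicate 2 and 2 without E4.5 replicate 1 or 2. Of 4 tested mast cell markers, 1 was called, the receptor kinase gene Kit, which other cells also express and which was lower at E0.5, at -1.38 (adjusted p = 0.0497, edgeR). Kit met the criterion in all 6 fits that left out 1 library, while the adjusted p was passed by 1 marker without E4.5 replicate 3 and by none without any 1 of the other 5 libraries. Mcpt4, at 3.85 and not called with all libraries, was called higher at E0.5 without E4.5 replicate 3, at 8.97. Cpa3 was called higher at E0.5 without E0.5 replicate 2. The markers of that list summed to 9.75, 1.82 and 4.41 FPKM at E0.5 and to 5.70, 6.49 and 6.06 FPKM at E4.5, so that E0.5 replicate 1 was the highest and the other E0.5 libraries the lowest. No neighbour that was tested other than Prss28 and Prss29 was listed above 10 FPKM in any library.

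Il13ra2, which encodes a receptor chain described as a decoy for interleukin-13, lies at chrX:147379785-147429192 on the minus strand. It had no count in any E0.5 library and 4605, 5508 and 518 counts at E4.5, or 4.13, 5.15 and 0.486 FPKM. All E4.5 libraries were above E0.5, with replicate 3 9.56-fold below the mean of the other two. Relative to a floor of 3 counts per E0.5 library, it was at least 1149-fold higher at E4.5, a bound that was 1638 without E4.5 replicate 3 and 822 without replicate 2. Among the other genes of interleukin-4 and interleukin-13 signaling, 1 of 9 tested was called higher at E0.5 and 2 were called lower. Il13ra1, the signaling receptor chain, was higher at E0.5, at 1.04 on the log2 scale (adjusted p = 0.0552, edgeR). Jak1, a kinase of the receptor, was lower at -1.09 (adjusted p = 0.0943, edgeR), and Il2rg, the common gamma chain, at -1.25 (adjusted p = 0.204, edgeR), in a row it shares with Gm614 and Gm20489. Without E4.5 replicate 3, 1 was called in each direction and Jak1, at -0.86, was not. The calls of Il13ra1, Jak1 and Il2rg were lost in 2, 2 and 3 of the 6 fits that left out 1 library. Interleukin-13 itself did not pass the filter, and interleukin-4 had 0.209 to 0.649 FPKM in all 6 libraries.

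Lrp2, or megalin, the endocytic receptor of the apical membrane, lies at chr2:69424340-69586065 on the minus strand. It had 0.595, 0.434 and 1.20 FPKM at E0.5 against 7.42, 6.62 and 3.00 FPKM at E4.5. The days did not overlap, and the gap held in replicate 3, which was 2.34-fold below the mean of replicates 1 and 2 in FPKM. The mean of Lrp2 in CPM was 7.63-fold higher at E4.5, and 9.43-fold higher without replicate 3, with a fitted log2 fold change of -2.94 (standard error 0.52). Of 11 tested genes of the LDL receptor family and partners of megalin, Lrp4 alone was called, lower at E0.5 as Lrp2 was, at -1.55 (adjusted p = 0.0702, edgeR). The median log2 fold change over the list was -0.05, and 0.39 without E4.5 replicate 3, in which 5 of the 11 were higher by more than 1. Cubn and Amn, which form the cubilin complex that works with megalin, were below the filter, at no more than 0.134 FPKM in any library.

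Sgk1, a serum- and glucocorticoid-regulated kinase that activates the epithelial sodium channel, lies at chr10:21882184-21999903. It had 11.4, 6.01 and 6.06 FPKM at E0.5 against 13.9, 15.46 and 49.5 FPKM at E4.5. It was the one gene of the 8 that was highest in E4.5 replicate 3, where it was 3.37-fold above the mean of replicates 1 and 2. The E4.5 mean was 3.34-fold higher, but 1.86-fold higher without that library, when the fitted log2 fold change went from -1.71 (standard error 0.54) to -0.93 and no longer reached the criterion. Nor was the criterion met without E0.5 replicate 2 or 3. None of the 11 tested genes among other SGK kinases, sodium channel subunits and their regulators was called, by edgeR at the criterion. They included the channel subunit Scnn1a, at 0.538 to 0.609 FPKM at E0.5 and 0.588 to 0.814 FPKM at E4.5. Without E4.5 replicate 3, 2 of the 11 were called lower at E0.5.

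Acod1, the mitochondrial enzyme that makes itaconate from the citrate cycle intermediate cis-aconitate, lies at chr14:103046977-103056573. It had 0.710, 1.37 and 0.769 FPKM at E0.5 against 9.01, 4.97 and 0.561 FPKM at E4.5. Replicates 1 and 2 of E4.5 were above all E0.5 libraries, and replicate 3 was below all of them, so the days overlapped. The E4.5 mean was 5.04-fold higher, and 7.26-fold higher without replicate 3, with a fitted log2 fold change of -2.38 (standard error 0.90) that went to -2.91 without replicate 3 and to -1.49 without replicate 1. It met the criterion in the fit without replicate 3 and in none of the 5 fits that left out another library. The 10 enzymes and carriers of the citrate cycle and of itaconate handling gave no call in either direction, with log2 fold changes between -0.71 and 0.23 and a median of -0.30, which was 0.02 without E4.5 replicate 3. Acod1 is also known from activated macrophages. Of 8 macrophage markers, 4 were called higher at E0.5 and none lower, a count that was also 4 without E4.5 replicate 3, and their sum in E4.5 replicate 3 was 0.902 times the mean of the other two.

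Gata2 and Spp1 were not lower at E0.5, and neither met the criterion in either direction. Gata2, a zinc finger factor that acts with the progesterone receptor in epithelium, lies at chr6:88192974-88207030. It had 5.99, 4.63 and 5.71 FPKM at E0.5 against 3.70, 3.40 and 0.930 FPKM at E4.5. The E0.5 libraries were all above the E4.5 libraries, with a fitted log2 fold change of 1.01 (standard error 0.50), of 0.60 without E4.5 replicate 3 and of 1.37 without E4.5 replicate 1. It met the criterion as higher at E0.5 in that last fit, with DESeq2 and with limma on FPKM. Among 11 other GATA factors and cofactors, Gata5 was called higher at E0.5, at 1.29 (adjusted p = 0.251, edgeR), and none was called lower. That call was lost in 4 of the 6 fits that left out 1 library, among them the fit without E4.5 replicate 3, where it was 0.97. Zfpm2 was called higher at E0.5 in that fit, at 1.03 against 0.12 with all libraries, and Lmo2 in the fit without E4.5 replicate 1. The median of the list was 0.12, and 0.68 without E4.5 replicate 3, and Gata4 was called lower at E0.5 without E4.5 replicate 1 or 2. Gata4 and Gata6, factors that the ovary also expresses, were at 11.3 and 6.91 FPKM in E4.5 replicate 3 and at no more than 0.0354 and 1.54 FPKM in the other E4.5 libraries.

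Spp1, or osteopontin, a secreted ligand of integrins and CD44, lies at chr5:104435118-104441050 in a row that it shares with Gm42793. It had 12.1, 21.8 and 19.8 FPKM at E0.5 against 17.9, 13.8 and 3.31 FPKM at E4.5. The days overlapped, and replicate 3 of E4.5 was 4.77-fold below the mean of replicates 1 and 2. The fitted log2 fold change was 0.61 (standard error 0.60), 0.16 without that library and 1.12 without E4.5 replicate 1. Of 9 tested osteopontin receptors and related genes, 1 was called. Itgb6, the beta chain of an epithelial integrin, was higher at E0.5 at 2.94 (adjusted p = 0.0492, edgeR), with 1.55, 2.59 and 4.03 FPKM against 0.179, 0.470 and 0.434 FPKM. Without E4.5 replicate 3, 2 were called and both passed the adjusted p, which none of the list did without any 1 of the other 5 libraries.

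Over the 8 genes, 6 were lower at E0.5 and met the study's criterion, where 5.82% of 59732 rows met it in that direction, 6.37% in the other and 12.2% in either. The 2 of them that also passed an adjusted p under 0.05 were Prss28 and Il13ra2, where 1.2% of all rows did. In 6 of the 8 the days did not overlap in FPKM, as in 25.2% of all rows. These were not the same 6, as Gata2, higher at E0.5, was among them and Acod1 was not. These counts describe the choice of the genes. The median fitted log2 fold change was -2.66, unchanged with Il13ra2 at its bound, against -0.01 over all tested rows. Without E4.5 replicate 3, the count of 6 became 5 and the median -3.08, and the count was 4 without E0.5 replicate 2 or 3 and 5 without any 1 of the other libraries. The count of 2 by the adjusted p became 5 without that library and 0 without any single one of the other 5 libraries of the stage, and was 6 with DESeq2.

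**Figure D1:**
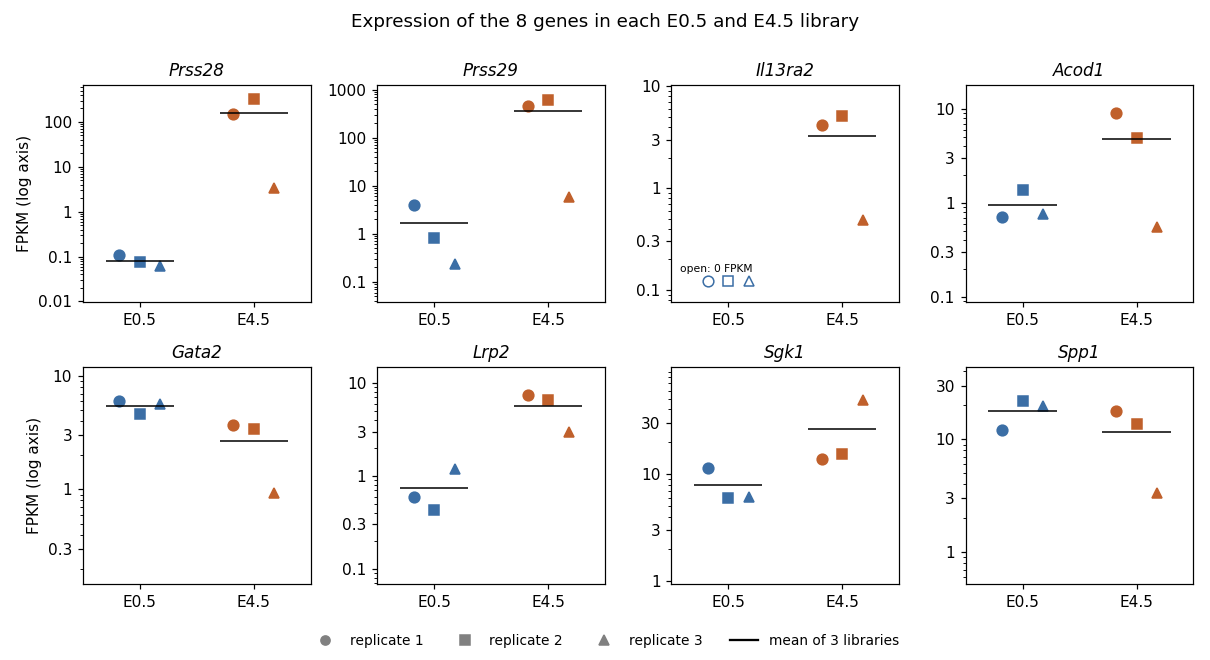
FPKM (log axis) of the 8 genes in each E0.5 (blue) and E4.5 (orange) library, with a symbol for each replicate number and a line at the mean of 3 libraries. Prss28, Prss29, Il13ra2, Acod1, Gata2, Lrp2 and Spp1 were lowest at E4.5 in replicate 3 (triangles), where Prss28 had 3.44 FPKM against 147 and 332 FPKM, and Sgk1 was highest there at 49.5 FPKM. Open symbols stand for 0 FPKM.

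How far E4.5 replicate 3 lay from the other E4.5 libraries differed between the genes. On the log2 scale of CPM, it was below their mean by a difference of -6.55 for Prss29, -6.08 for Prss28, -3.64 for Acod1, -3.32 for Il13ra2, -2.32 for Spp1, -2.004 for Gata2 and -1.30 for Lrp2, and above it by 1.68 for Sgk1. Thus 7 of the 8 were lower by more than 1, while 19.8% of all tested rows were lower and 19.8% higher by that much. On the same scale, the median over the epithelial markers was -1.36, with 6 of 8 lower by more than 1, and their sum in FPKM was 2.08-fold lower. The median over the gland markers was -3.36, with 4 of 5 lower and 3 of 5 lower by more than 1, while their sum was 1.62-fold lower. The median was -2.58 over the smooth muscle markers and -3.43 over the uterine NK cell markers. The part of the gland and epithelium in the low values of the 8 genes in that library was not tested. Between E4.5 replicates 1 and 2 the 8 genes differed by no more than 1.06 on the same scale, the value of Prss28. In bulk tissue, fewer cells of a type and less RNA per cell cannot be told apart.

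**Figure D2:**
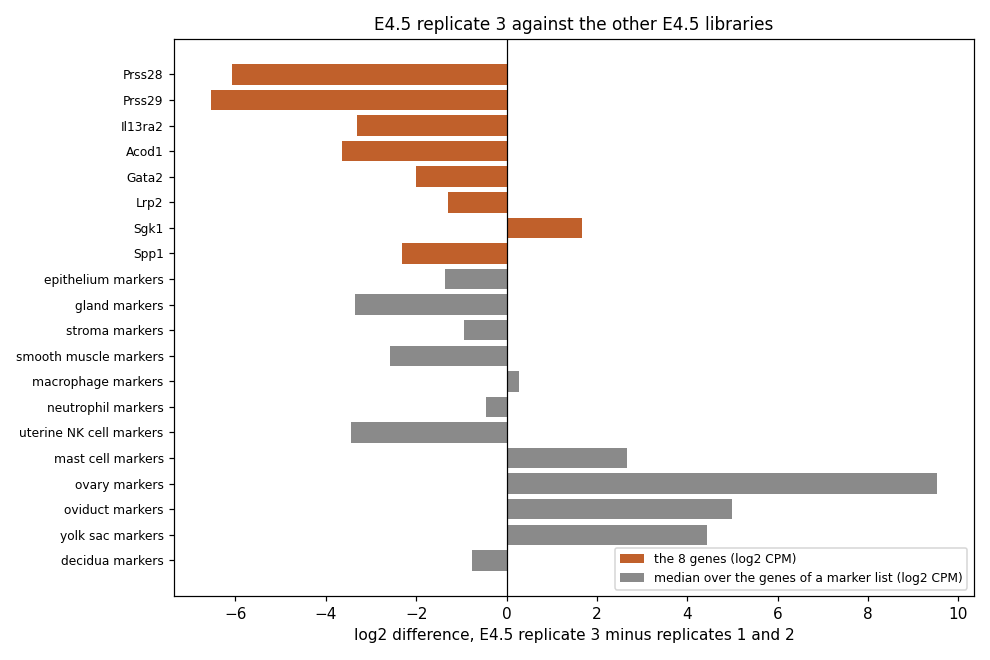
Log2 CPM difference of E4.5 replicate 3 from the mean of E4.5 replicates 1 and 2, for each of the 8 genes (orange) and as the median over the tested genes of each marker list with 4 or more of them (grey). Prss28 and Prss29 lay at -6.08 and -6.55 and the medians of the gland and uterine NK cell markers at -3.36 and -3.43, while the median over the ovary markers was 9.53.

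Other genes known to respond to progesterone were lower at E0.5 in 8 of 16 tested cases and higher in 1, by the criterion, with a median log2 fold change of -1.37. The list was put together with earlier results of these data known and so is no independent evidence of its direction. An adjusted p under 0.05 was reached by 5 of these, all lower at E0.5: Cyp26a1, a retinoic acid hydroxylase, at -7.49 (adjusted p = 0.0264, edgeR), Fst, the activin antagonist follistatin, at -3.74 (adjusted p = 0.0113, edgeR), Bmp2, a ligand of decidualization, at -3.44 (adjusted p = 0.0187, edgeR), Ihh, the epithelial hedgehog ligand, at -2.56 (adjusted p = 0.0449, edgeR), and its receptor Ptch1 at -1.73 (adjusted p = 0.0187, edgeR). Ihh and Ptch1 were not reduced in E4.5 replicate 3, where they had 4.24 and 9.14 FPKM against 1.78 to 3.08 and 7.20 to 8.89 FPKM in the other two. Cyp26a1 had 72.6, 85.0 and 10.3 FPKM at E4.5 and Hand2, a stromal factor, 22.0, 20.6 and 1.13 FPKM. Pgr itself was not called (-0.46, adjusted p = 0.77, edgeR), with 3.45, 4.34 and 6.58 FPKM at E0.5 against 8.86, 9.52 and 1.31 FPKM at E4.5. Without E4.5 replicate 3, 8 were called lower and 1 higher, and 8 passed the adjusted p. In that fit Fkbp5 lost its call, going from -2.66 to -0.88, and Hoxa10 gained one, going from -1.02 to -1.55. The count of 5 by the adjusted p was 0 without any 1 of the E0.5 replicates, 2 without E4.5 replicate 1 and 3 without E4.5 replicate 2.

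Genes of the estrogen response moved the other way. Of 10 tested, 9 were called higher at E0.5 and 1 lower, and 8 passed the adjusted p. The adjusted count was 9 without E4.5 replicate 3, 0 without E0.5 replicate 2 and 2 without any 1 of the other 4 libraries, while 9 were called higher by the criterion in each of these fits. Lcn2, which encodes lipocalin 2, had 321, 308 and 318 FPKM at E0.5 against 2.21, 1.22 and 2.23 FPKM at E4.5 (log2 fold change 7.38, adjusted p = 0.00505, edgeR). The complement gene C3 had 707, 578 and 695 FPKM at E0.5 against 41.7, 46.0 and 35.6 FPKM at E4.5 (log2 fold change 4.01, adjusted p = 0.00508, edgeR). For these 2 genes E4.5 replicate 3 lay with the other E4.5 libraries. The exception was Olfm1, at -2.32 (adjusted p = 0.188, edgeR), a call lost in 4 of the 6 fits that left out 1 library, with 11.6 FPKM in E4.5 replicate 3 and 99.5 and 106 FPKM in the others. Of 8 epithelial markers, 4 were called higher at E0.5, 4 were not called and 2 passed the adjusted p, the keratin genes Krt8 at 1.96 (adjusted p = 0.0248, edgeR) and Krt19 at 2.23 (adjusted p = 0.0469, edgeR). Without E4.5 replicate 3, the library low in these markers, 2 of the 8 were called, and the adjusted count was 0 without any 1 of the E0.5 replicates or E4.5 replicate 1, and 1 without E4.5 replicate 2.

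The genes whose profile over the 6 libraries was nearest to each of the 8 were found as the smallest root mean square difference in log2 values, each gene centred on its own mean, over 10506 rows with at least 1 FPKM on average. Cyp26a1 (1.34), the protease inhibitor Spink1 (1.69) and the neuropeptide gene Tac2 (1.76) were nearest to Prss28. Spink1 (1.34), Cyp26a1 (1.5002) and the noradrenaline transporter gene Slc6a2 (1.53) were nearest to Prss29. Atp6v0d2, a proton pump subunit, was nearest to Il13ra2 (0.432), with 46.2, 37.8 and 6.51 FPKM at E4.5 and at most 0.651 FPKM at E0.5. The transcription factor gene Lef1 (0.303) was nearest to Acod1, and Dnph1 (0.307) to Lrp2. Lss, an enzyme of cholesterol synthesis, was nearest to Sgk1 (0.192), with 5.53 FPKM in E4.5 replicate 3 against 1.44 and 1.42 FPKM. Plekhb2 (0.146) was nearest to Gata2. The calponin genes Cnn2 (0.155) and Cnn1 (0.168), of which Cnn1 belongs to smooth muscle, were among the 3 nearest to Spp1. Within the 8, Gata2 and Spp1 were the nearest pair (0.416), followed by Acod1 and Lrp2 (1.11), Il13ra2 and Lrp2 (1.15) and Prss28 and Prss29 (1.23). The libraries of 1 day share their animals across genes, and these likenesses carry no test.

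The genes were chosen by the contrast of the implantation stage, though with earlier results of these data known. At the labor stage, E18.5 was tested against E15.5 with limma on log2(FPKM + 0.1). By the criterion, 2 of the 8 were lower at E18.5 and none was higher, where 2.93% of 30928 rows were called lower, 3.11% higher and 6.05% in either direction. None of the 8 passed the adjusted p, which 0.0259% of rows (8 rows) did, and 2 of the 8 had an unadjusted p under 0.05, as did 12.2% of all rows (3759 rows). The days did not overlap for 2 of the 8, as for 19.9% of all rows. The median log2 fold change was -0.11, against 0.02 over all tested rows. The exact permutation test for 1 gene, two-sided, could give no p under 0.1 with these group sizes.

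Spp1 had the largest fitted difference of the 8 genes at this stage. It had 1143, 540 and 347 FPKM in E15.5 replicates 1 to 3 and 127, 166 and 191 FPKM in E18.5 replicates 1 to 3. Every E15.5 library was above every E18.5 library, with a mean of 677 ± 415 FPKM (SD, n = 3) against 162 ± 32.3 FPKM (SD, n = 3). On the log2(FPKM + 0.1) scale it was lower at E18.5, at -1.91 (standard error 0.44, adjusted p = 0.182, limma), and it met the criterion in every one of the 6 fits that left out 1 library, with values from -2.30 to -1.44. The markers of uterine NK cells, the lymphocytes of the pregnant uterus, moved with it. Their sum was 383, 220 and 133 FPKM at E15.5 and 9.36, 13.5 and 41.5 FPKM at E18.5, and within each day the libraries ranked as they did for Spp1. All 6 of these markers were called lower at E18.5, among them the cytotoxic granule genes Gzmb at -4.01 (adjusted p = 0.112, limma) and Prf1 at -3.62 (adjusted p = 0.121, limma). All 6 were called without E15.5 replicate 2 or 3, and 5 of the 6 without E15.5 replicate 1 or any 1 of the E18.5 replicates. Of 5 tested decidua markers, 2 were called higher at E18.5 and none lower, with a median of 0.02: the decidual ligand gene Wnt4 at 1.24 (adjusted p = 0.149, limma) and the small heat shock protein gene Cryab at 1.12 (adjusted p = 0.141, limma). Prl8a2, a decidual prolactin of the same list that was not called, was at 1342 FPKM in E15.5 replicate 1 and at 40.2 to 86.0 FPKM in the other 5 libraries. None of 8 macrophage markers was called. E15.5 replicate 1 was also the highest E15.5 library for the summed neutrophil markers, at 27.9 FPKM against 3.24 and 2.12 FPKM. These were at 2.02 to 6.31 FPKM at E18.5. Trophoblast markers summed to 35.0 FPKM in that library against 4.39 and 3.79 FPKM in the other E15.5 libraries, and to 42.0 to 73.2 FPKM at E18.5. The part of these cells in the change of Spp1 was not tested. Of 9 tested osteopontin receptors and related genes, Itgb6 alone was called, higher at E18.5 at 1.05 (adjusted p = 0.255, limma), and neither it nor another gene of the list was called without replicate 1 of either day.

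Prss28 and Prss29 were still measured late in pregnancy, at levels that cannot be tested against those of the other table, which was normalized separately. Prss29 had 43.4, 11.05 and 31.7 FPKM at E15.5 and 9.99, 10.6 and 11.02 FPKM at E18.5. The lowest E15.5 library and the highest E18.5 library were nearly equal, so that the days barely failed to overlap. It was lower at E18.5 with a log2 value of -1.23 (standard error 0.47, adjusted p = 0.365, limma). That call was lost in 5 of the 6 fits that left out 1 library and held without E15.5 replicate 2, where the value was -1.81. Prss28 had 10.8, 2.21 and 7.82 FPKM at E15.5 and 2.60, 3.13 and 2.21 FPKM at E18.5. The days overlapped through E15.5 replicate 2, and the difference of -1.10 (standard error 0.55, adjusted p = 0.47, limma) did not meet the criterion. Without E15.5 replicate 2 it was -1.78 and met the criterion (adjusted p = 0.235, limma), and without E15.5 replicate 1 it was -0.65. The Prss29 to Prss28 ratio of FPKM was 4.01, 5.01 and 4.06 at E15.5 and 3.84, 3.38 and 4.99 at E18.5. In the neighbouring gene group, 3 of 5 tested genes were called higher at E18.5, among them the mast cell tryptase Tpsb2 at 1.55 (adjusted p = 0.177, limma), with 2.38 to 5.02 FPKM against 0.777 to 1.49 FPKM. Of the epithelial markers 4 of 8 were called higher at E18.5 and none lower, a direction opposite to that of Prss29. That count of 4 was 2 without replicate 1 of E18.5 and 7 without replicate 3 of E15.5, the lowest and highest when 1 library was left out.

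Lrp2 had the widest spread within a day among the 8 genes at the labor stage. It had 0.450, 2.56 and 7.34 FPKM at E15.5, a 16.3-fold range, and 2.01, 2.76 and 1.248 FPKM at E18.5. The days overlapped, and the log2 fold change was -0.14 (standard error 0.88, adjusted p = 0.964, limma). Its sign depended on single libraries, with -1.15 without E15.5 replicate 1 and 0.73 without E15.5 replicate 3. Cubn, the partner of megalin in endocytosis, ranked the E15.5 libraries in the same order, with 0.123, 1.49 and 4.72 FPKM, and had 0.664, 1.74 and 0.737 FPKM at E18.5. Both proteins are also made in the visceral yolk sac, whose markers summed to 11.2, 172 and 1081 FPKM at E15.5 and 315, 816 and 222 FPKM at E18.5, Cubn and Amn included. The lowest and the highest library for Lrp2 were the lowest and the highest for that sum, and the highest of the E18.5 libraries was also shared, while their part in the spread of Lrp2 was not tested. Amn was called lower at E18.5, at -1.53 (adjusted p = 0.28, limma), and Clu, the secreted chaperone clusterin that megalin takes up, was called higher at 2.18 (adjusted p = 0.158, limma), from 8.27, 10.3 and 16.2 FPKM to 98.9, 42.1 and 31.2 FPKM. These were the 2 calls among 13 tested members of the LDL receptor family and megalin partners.

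**Figure D3:**
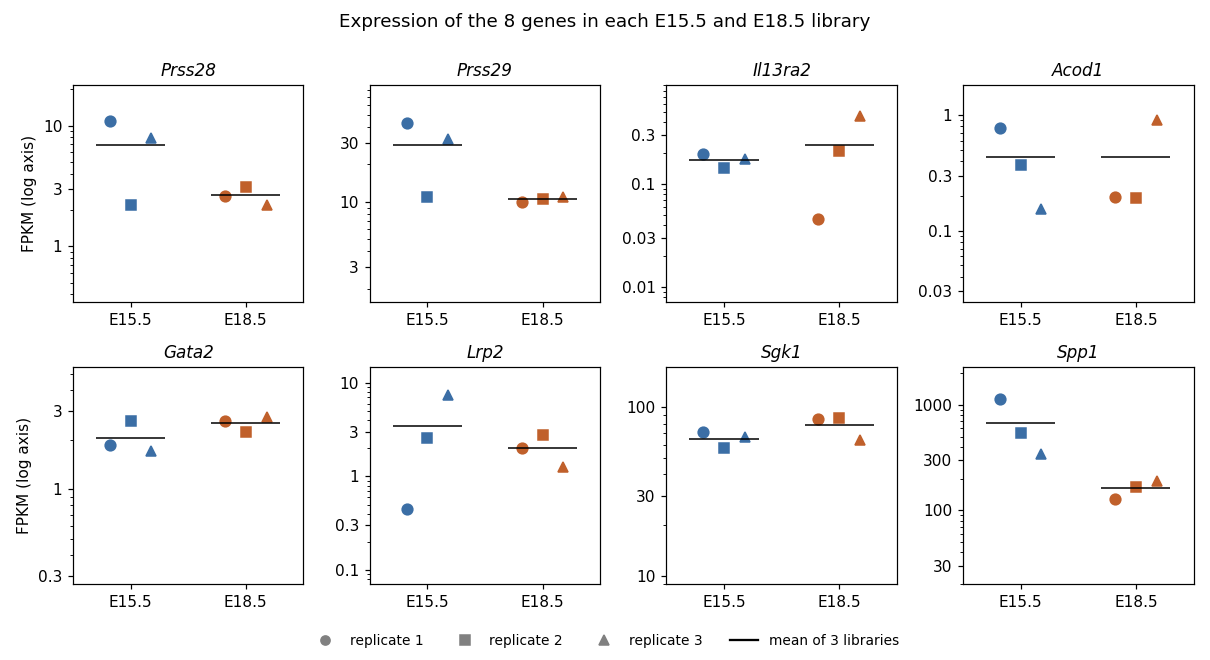
FPKM (log axis) of the 8 genes in each E15.5 (blue) and E18.5 (orange) library, with a symbol for each replicate number and a line at the mean of 3 libraries. The E15.5 and E18.5 libraries were apart for Spp1, at 347 to 1143 FPKM against 127 to 191 FPKM, and nearly met for Prss29, while the other 6 genes overlapped.

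**Figure D4:**
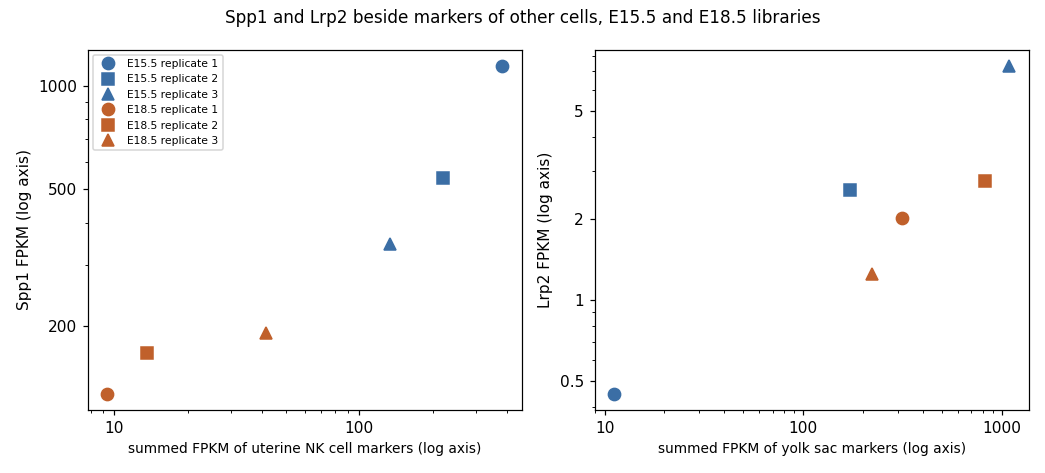
FPKM of Spp1 against the summed FPKM of 6 uterine NK cell markers (left) and FPKM of Lrp2 against the summed FPKM of 8 yolk sac markers (right), all on log axes, with 1 point per library at E15.5 (blue) and E18.5 (orange). Spp1 and the NK cell markers were both highest in E15.5 replicate 1 (1143 and 383 FPKM), and Lrp2 and the yolk sac markers were both lowest in E15.5 replicate 1 (0.450 and 11.2 FPKM) and highest in E15.5 replicate 3 (7.34 and 1081 FPKM).

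The remaining 4 genes did not meet the criterion at the labor stage. Sgk1 was high throughout, with 71.8, 57.2 and 66.7 FPKM at E15.5 and 84.9, 86.3 and 64.1 FPKM at E18.5. E18.5 replicate 3 lay among the E15.5 libraries, and the log2 fold change was 0.26 (standard error 0.17, adjusted p = 0.589, limma). Of 12 tested genes around SGK kinases and the sodium channel, Scnn1a alone was called, higher at E18.5 at 1.74 (adjusted p = 0.351, limma), with 0.0601, 0.281 and 0.748 FPKM at E15.5 and 1.57, 1.48 and 0.637 FPKM at E18.5, a call that was lost in 4 of the 6 fits that left out 1 library. Gata2 had 1.85, 2.60 and 1.70 FPKM at E15.5 and 2.62, 2.24 and 2.75 FPKM at E18.5, an overlapping difference of 0.31 (standard error 0.20, adjusted p = 0.579, limma). None of 9 tested GATA factors and cofactors was called at this stage.

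Acod1 and Il13ra2 were below 1 FPKM in all libraries of the labor stage. Acod1 had 0.768, 0.371 and 0.153 FPKM at E15.5 and 0.197, 0.190 and 0.912 FPKM at E18.5, so that 1 library of each day set its mean, and the log2 fold change was -0.08 (standard error 0.65, adjusted p = 0.972, limma), and -0.68 to 0.36 when 1 library was left out. None of the 10 citrate cycle and itaconate genes was called, and 1 was called without E15.5 replicate 3. Il13ra2 had 0.193, 0.143 and 0.173 FPKM at E15.5 and 0.0458, 0.209 and 0.454 FPKM at E18.5. Its E18.5 libraries lay on either side of those of E15.5, with a difference of 0.12 (standard error 0.52, adjusted p = 0.947, limma), and of -0.34 to 0.62 when 1 library was left out. Of 9 tested genes of interleukin-4 and interleukin-13 signaling, Il2rg alone was called, lower at E18.5 at -1.01 (adjusted p = 0.239, limma), a call lost in 3 of the 6 fits that left out 1 library. It was highest in E15.5 replicate 1, as the NK cell markers were.

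Among other progesterone-responsive genes, 2 of 16 tested were called higher at E18.5 and 2 lower. Alox15, a lipoxygenase, was higher at 1.29 (adjusted p = 0.345, limma), with 1.42, 0.978 and 1.75 FPKM against 0.335, 1.10 and 0.297 FPKM. Calca and Hdc, which encode calcitonin and the histamine-producing enzyme, were lower at -1.12 (adjusted p = 0.387, limma) and -1.30 (adjusted p = 0.375, limma). Pgr had 7.48, 6.87 and 9.56 FPKM at E15.5 and 7.86, 7.54 and 6.36 FPKM at E18.5, and was not called (-0.13, adjusted p = 0.787, limma). None of the 16 was called without replicate 1 of either day, and 1 to 3 were called without one of the other libraries. Of 7 tested genes of the estrogen response, 3 were called higher at E18.5 and none lower, with the lactoferrin gene Ltf at 2.77 (adjusted p = 0.167, limma) and the cornified envelope gene Sprr2f at 4.12 (adjusted p = 0.0955, limma).

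**Figure D5:**
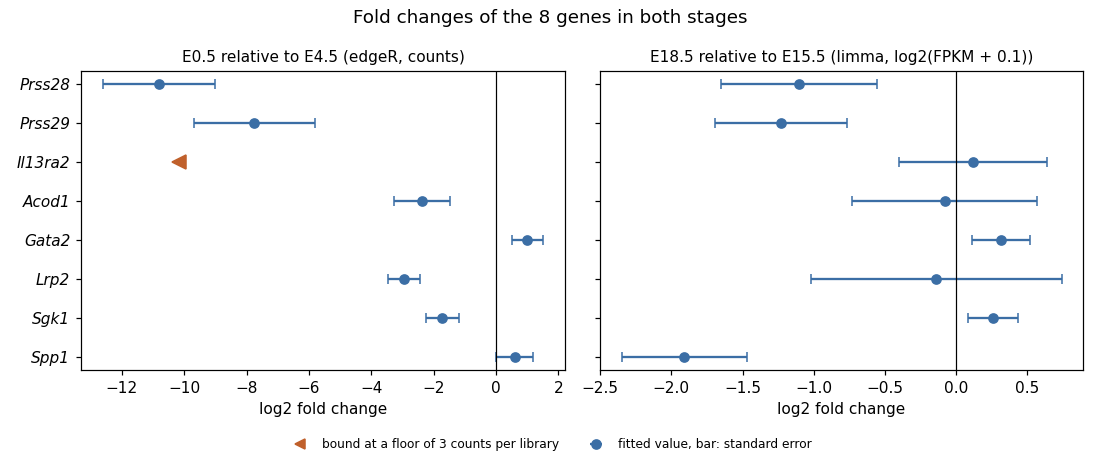
Log2 fold changes of the 8 genes at the implantation stage (left, E0.5 relative to E4.5, edgeR on counts) and the labor stage (right, E18.5 relative to E15.5, limma on log2(FPKM + 0.1)). Bars are 1 standard error, at left derived from the F statistic of edgeR, and a triangle marks the bound for Il13ra2. The axes differ in scale. At the implantation stage 6 genes lay below 0 and Gata2 and Spp1 above it, and at the labor stage Spp1 (-1.91) and Prss29 (-1.23) met the criterion.

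Set side by side, the values of the 2 stages differed in which genes stood low on the day with less progesterone. Prss28 and Prss29 were lower on that day in both, by -10.82 and -7.75 at the implantation stage and by -1.10 and -1.23 at the labor stage, of which only the Prss29 value met the criterion at labor. Acod1 and Lrp2 had -2.38 and -2.94 at the implantation stage and -0.08 and -0.14 at the labor stage, where either sign was found when 1 library was left out. Sgk1 had -1.71 and 0.26. Spp1 had 0.61 and -1.91. Gata2 had 1.01 and 0.31, neither of which met the criterion. Il13ra2 was lower on that day by at least 1149-fold at the implantation stage and had 0.12 at the labor stage. The difference between the stages was not tested for these genes, because the tables were normalized separately and the first contrast had been used to choose them.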

How the data were processed

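RNA had been sequenced from the uteri of 12 mice, 3 on each of 4 days of pregnancy. The labels describe poly(A) selection, and the methods of the study describe removal of ribosomal RNA. The authors trimmed reads with Cutadapt, aligned them and assembled and quantified transcripts with StringTie and Ballgown. The processing notes list Bowtie 0.12.2, HISAT2 2.0, StringTie 1.3.0 and the builds mm8 and mm10, and the coordinates of the 8 genes overlap those of the same genes in RefSeq GRCm38. The FPKM values of both stages and the counts of the implantation stage were deposited by the authors, who made the tables of the stages separately. How counts were assigned to rows, and whether strand was used, is not given in the sources used here. The value 0.0001, which stands for 0 FPKM in the first table, was set back to 0. Rows without a gene name (7007 and 1332) were kept, and held 1.02% to 1.86% of the counts of a library.

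E0.5 and E4.5 were compared on their counts by the quasi-likelihood test of edgeR 4.0.16 after TMM scaling. Standard errors given for this stage were derived from the F statistic of that test. Each is the size of the log2 fold change divided by the square root of F. For the 8 genes they restate that test and serve as description only. E15.5 and E18.5 were compared by limma 3.58.1, with its trend option, as log2(FPKM + 0.1), which understates the fold change of low genes. The tested rows, 59732 and 30928, had means of 0.1 FPKM or more in the 6 libraries concerned. A call follows the criterion of the study, which asks for a log2 fold change of 1 or more in size and for p under 0.05 before adjustment. The adjusted p-values are Benjamini-Hochberg values over all tested rows. For genes without counts in a group, the bound uses a floor of 3 counts per library, and such bounds cover counting error only. Each library is 1 mouse. The 8 genes, the 9 lists of related genes, the 13 lists of markers and the rule for named genes (the 8 genes, the called members of the lists and the 3 nearest profiles) were chosen with earlier results of these data known. Genes named beyond that rule, such as neighbours and markers that move with a result, were chosen after their values were seen. Not every gene that the rule covers is named, and the others enter the counts. One gene is not reported here. The alternatives were DESeq2 1.42.0, limma on FPKM, other scalings, pseudocounts of 1 and 0.01, other filters, a block for the replicate number, fits without each library in turn, and rows with a gene name only, which was added after seeing the data. Both tests were run on simulated data. Scripts used R 4.3.3, Python 3.11.15, pandas 2.3.3 and NumPy 2.4.6. Promoter and protein sequences were not analysed here.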

Additional observations from a re-analysis of the deposited data

Results flagged for a closer look

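Among the rows other than those of the 8 genes were 2 assembled loci without an Ensembl transcript that carry the name of Il13ra2, at chrX:147408348-147412298 and chrX:147413021-147414414 inside the span of the gene. Both had no count in any E0.5 library, as Il13ra2 itself did, and means of 1.43 and 1.59 FPKM at E4.5. The first had 1.61, 2.45 and 0.211 FPKM in E4.5 replicates 1, 2 and 3 and the second 1.91, 2.71 and 0.157 FPKM, so that replicate 3 was again the lowest. They came to attention as signal above the level on the other day in rows that are not those of the 8 genes, although they were among the tested rows. Another such locus, at chr6:88194402-88197411, carries the name of Gata2. It had 4.44, 4.65 and 4.66 FPKM at E0.5 against 4.89, 4.38 and 1.20 FPKM at E4.5. Its days overlapped, unlike those of the Gata2 row described above.

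Areg, an epidermal growth factor ligand of the epithelium, had opposite signs at the stages. It had no count at E0.5 and 86, 34 and 33 counts at E4.5, at least 16.5-fold above a floor of 3 counts per library, with a fitted log2 fold change of -8.68 that depends on the prior count. In the labor table it is listed at 0 in all E15.5 libraries and had 0.270, 0.798 and 0.0224 FPKM at E18.5, a difference of 1.78 on the log2(FPKM + 0.1) scale that the pseudocount sets. That value met the criterion at the labor stage, a call that was lost in 5 of the 6 fits that left out 1 library, with values from 1.09 to 2.53. Every library moved one way at one stage and the opposite way at the other, and the difference between the stages was not tested.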

How the results depend on the processing

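At the implantation stage, 6 of the 8 genes had a value below 0 under all 14 alternatives, whether or not they met the criterion, and the median log2 fold change over all 8 lay between -3.08 and -2.33 when 1 library was left out. All 8 kept their sign there. The fold change of Prss28 was -8.27 and that of Il13ra2 -4.56 with limma on FPKM, where the pseudocount bounds them. The count of called rows was 4397 with a mean of at least 1 FPKM, a filter that tests fewer rows, against 7284, and 6000 to 8442 with 1 library left out. By the adjusted p it was 719, and 4812 with DESeq2, 0 with the replicate block and 0 to 3193 with 1 library left out. At the labor stage, 1870 rows were called, 514 with a pseudocount of 1, 799 with a mean of at least 1 FPKM and 1537 to 2395 with 1 library left out. By the adjusted p there were 8, and 2 to 13 under the other settings and 0 to 28 with 1 library left out. The calls among the 8 genes were 2, and 1 to 3 with 1 library left out. Over the lists of related genes and markers, 33 rows were called at labor, 17 with a pseudocount of 1 and 20 to 37 with 1 library left out. Some genes that did not meet the criterion changed sign. At the implantation stage, Gata6 went to 0.037 with the replicate block. With 1 library left out, values ranged from -0.70 to 2.71 for Tpsb2, -0.15 to 0.39 for Lrpap1, -0.0098 to 0.67 for Cd44, -0.41 to 0.56 for Itgav, -0.82 to 0.75 for Gata6, -0.59 to 0.026 for Dab2 and -0.031 to 0.57 for Nedd4l. At the labor stage, Il13ra2 went to -0.0016 with a pseudocount of 0.01 and Dab2 to -0.016 with quantile scaling and to -0.033 with 75th percentile scaling. With 1 library left out, the range was -1.15 to 0.73 for Lrp2, -0.68 to 0.36 for Acod1, -0.34 to 0.62 for Il13ra2, -0.76 to 0.10 for Cyp26a1, -0.53 to 0.15 for Gata3, -0.12 to 0.11 for Gata6, -1.39 to 0.83 for Cubn, -0.0099 to 0.10 for Dab2, -0.16 to 0.056 for Itgb3, -0.25 to 0.13 for Cd44, -0.22 to 0.011 for Pgr and -0.34 to 0.50 for Tpsab1. The cause of these differences was not tested beyond the number of rows and libraries entered.

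The replicate numbers of the labels did not pair the samples: the deviations of same-numbered libraries correlated at -0.08, 0.03 and -0.08 at the implantation stage and at 0.00, 0.00 and -0.04 at the labor stage. With the replicate block, 6234 and 1853 rows were called, and the median of the 8 genes at the implantation stage was -2.36. Depth limits the E0.5 values of Prss28, which rest on 10 to 16 counts, and is unknown at the labor stage.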
